A study of Mus musculus with 6 samples.

Results

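The 10 genes described here encode secreted growth factors that act on blood and lymph vessels or, for Hgf, on epithelial and muscle cells. They were chosen by name as the VEGF family (Vegfa, Vegfb, Vegfc, Figf and Pgf), hepatocyte growth factor (Hgf), the angiopoietins Angpt1 and Angpt2, and the angiopoietin-like genes Angptl2 and Angptl4. Figf is the older symbol of Vegfd and is the name under which that gene is listed. All 10 were present among the 16894 listed genes, and all 10 passed the filter on low values (at least 0.5 CPM in at least 3 libraries).

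Bulk RNA-seq was performed on mouse fibro-adipogenic progenitors (FAPs), stromal cells that lie between the fibers of skeletal muscle. Control (non-senescent) FAPs made up 3 libraries, and 3 further libraries came from FAPs made senescent with 20 μM etoposide, a topoisomerase II poison, for 48 h and then kept in normal medium for 5 days. In both groups the cells were primary cultures from male and female C57BL/6 mice aged 3 to 6 months, sorted with magnetic beads as CD45-, CD31-, α7-integrin- and SCA-1+ cells, and grown with fetal bovine serum and bFGF at 3% O2. Nothing in the labels ties a replicate to a separate animal, so the p-values measure the spread between these libraries, which may be technical. That spread was larger than the error of read counting. Between libraries of the same group, the chi-square per gene for equal shares of reads was 15.1 to 162.5. Its source was not tested. Reads on genes ranged from 41412179 to 59912520 per library. The FAP markers Pdgfra, Ly6a, Cd34, Dcn, Pdgfrb and Thy1 were all present, with a summed level of 1478 to 2170 CPM in control and 1916 to 2669 CPM in senescent FAPs, 3 of the 6 rose, and Pdgfrb had the highest mean. Endothelial markers summed to 11.7 to 13.6 CPM in control and 14.95 to 17.9 CPM in senescent FAPs over the 6 of 10 with a value (2 of 5 tested rose), led by Eltd1, and the defining genes Cldn5, Emcn, Erg and Plvap were not analysed here. Leukocyte markers summed to 8.92 to 12.1 CPM and 21.7 to 26.6 CPM over 5 of 8 with a value (3 of 4 tested rose), led by Csf1r. Itgam was listed at 0 in control replicates 2 and 3 and entered the test only through the senescent libraries. Ptprc, Adgre1 and Tyrobp had no value. Pericyte and smooth muscle markers summed to 55.5 to 72.8 CPM and 88.9 to 105 CPM over all 6 (2 of 5 tested rose and 1 fell), led by Notch3. Satellite cell and myoblast markers summed to 14.3 to 19.3 CPM and 23.4 to 30.2 CPM over 2 of 6 (1 of 2 rose), led by Itga7, and Pax7, Myf5, Myod1 and Myog had no value. None of the 4 adipocyte markers had a value. Over all genes tested, 21.8% rose and 24.3% fell in the same test. The part of these other cell types in the results was not tested.

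VEGF ligands signal through receptor tyrosine kinases on endothelial cells. VEGFA acts mainly through VEGFR2 (Kdr) on blood vessels, PGF and VEGFB bind VEGFR1 (Flt1), and VEGFC and VEGFD act through VEGFR3 (Flt4) on lymphatic vessels. ANGPT1 activates the receptor TIE2 (Tek) and steadies vessels, whereas ANGPT2 often blocks that signal. HGF is secreted as an inactive precursor, binds MET after cleavage, and is known in muscle as a signal that rouses satellite cells. Vegfa and Angptl4 are textbook targets of hypoxia-inducible factors, and Angptl4 is also induced by PPARs.

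Promoter sequence was available from RefSeq (GRCm38.p6) for 7 of the 10 genes. Angpt1, Angpt2 and Angptl4 were not among them. Each window spans the 250 bases before an annotated start, and 2 motifs were searched on both strands, the hypoxia response core (ACGTG or GCGTG) and the GC box (GGGCGG) that SP1 family factors recognise. The 3 windows below are shown because they belong to the gene with the highest level (Vegfa), to the window with the most matches (Vegfb) and to Hgf. Capitals mark the matches in either orientation, each sequence reads 5′ to 3′ along its gene's strand, and no matches overlapped.
Vegfa, chr17:46032378-46032627, minus strand: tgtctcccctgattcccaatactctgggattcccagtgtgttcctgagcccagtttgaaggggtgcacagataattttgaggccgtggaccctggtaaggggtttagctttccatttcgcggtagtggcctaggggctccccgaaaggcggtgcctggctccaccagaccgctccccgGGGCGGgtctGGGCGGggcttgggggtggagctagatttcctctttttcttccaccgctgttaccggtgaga
Vegfb, chr19:6987652-6987901, minus strand: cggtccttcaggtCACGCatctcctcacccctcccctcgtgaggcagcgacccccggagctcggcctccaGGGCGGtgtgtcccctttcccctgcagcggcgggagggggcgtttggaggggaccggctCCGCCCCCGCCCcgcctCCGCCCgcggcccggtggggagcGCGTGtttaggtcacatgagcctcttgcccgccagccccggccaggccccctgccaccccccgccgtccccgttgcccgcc
Hgf, chr5:16553245-16553494, plus strand: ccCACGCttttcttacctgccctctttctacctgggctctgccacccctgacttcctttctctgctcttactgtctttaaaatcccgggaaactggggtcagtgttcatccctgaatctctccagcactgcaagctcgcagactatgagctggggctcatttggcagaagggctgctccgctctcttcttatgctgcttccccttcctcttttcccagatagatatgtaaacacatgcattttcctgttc
The Vegfa window held 2 GC boxes and 0 hypoxia response cores, the Vegfb window 4 and 2, and the Hgf window 0 and 1. Sequence further upstream was not searched. A further annotated start of Vegfa, inside the gene, has a window that overlaps an exon and held 1 GC box and 2 cores. The core was found in 4 of the 10 windows of these genes (40%) against 38.6% of all 32841 windows, and the GC box in 6 of 10 (60.0%) against 32.7%. Among the windows of a list of hypoxia-inducible factor genes and targets, both motifs were frequent, the core in 81.6% and the GC box in 71.1% of 38.

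Levels per kilobase of exon put Vegfa far above the other factors. Vegfa had a mean of 121 CPM per kb in control FAPs (range 115 to 128) and 106 CPM per kb in senescent FAPs (97.7 to 112). Angptl2 followed at 51.0 (35.9 to 65.9) and 52.6 (44.5 to 64.8), and Figf at 26.0 (10.3 to 38.2) and 33.2 (30.8 to 35.8). Pgf came next, at 10.6 CPM per kb in both groups. Vegfc, Hgf, Vegfb, Angptl4 and Angpt1 followed, with means of 2.60 to 7.86 CPM per kb in control and 6.26 to 8.11 in senescent FAPs. Angpt2 was lowest at 0.396 CPM per kb (0.242 to 0.479) in control and 0.748 (0.619 to 0.929) in senescent FAPs. In control FAPs only the first step in this order, from Vegfa to Angptl2, and the last, from Angpt1 to Angpt2, separated neighbours whose ranges did not overlap. In senescent FAPs, Vegfa, Angptl2, Figf and Pgf each lay above the range of the next gene, and Angpt2 lay below all others, whereas the ranges of neighbours among Vegfc, Angptl4, Hgf, Angpt1 and Vegfb overlapped.

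**Figure D1:**
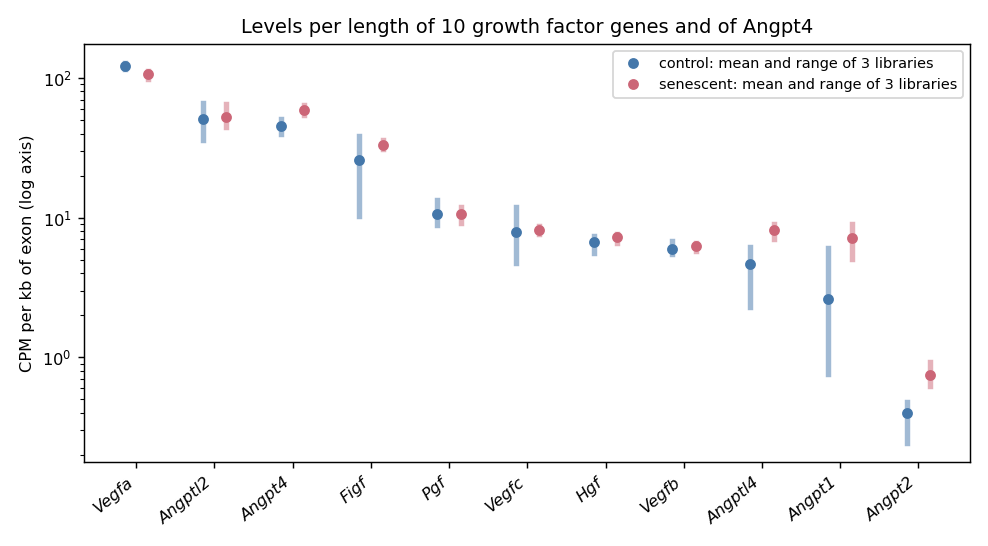
Level of each factor, and of its relative Angpt4, in CPM per kilobase of exon (log axis). Points give the mean of 3 control or 3 senescent libraries and bars their range. Vegfa is highest and Angpt2 lowest in both groups, and the bar of Angpt1 in control FAPs runs from 0.755 to 6.08 CPM per kb.

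Of the 10 genes, 2 rose in senescent compared to control FAPs (Angpt1 and Angpt2), 0 fell and 8 did not pass the test, at an adjusted p under 0.05 in limma fitted over 14776 genes with Benjamini-Hochberg adjustment. Across all genes tested, 46.1% passed, 21.8% as higher and 24.3% as lower in senescent FAPs. The share among these factors was 20%, under the share over all genes. The groups did not overlap for 3 of the 10 genes (Vegfa, Angpt2 and Angptl4), against 57.4% of all genes. The median log2 fold change was 0.13, beside −0.03 over all genes, and 9 of 10 fitted values were above 0. Of those 9, Vegfc, Figf, Pgf, Hgf and Angptl2 changed sign in at least 1 fit with a library left out. At an unadjusted p under 0.01 with a log2 fold change beyond 1, the count was 0 of 10, against 10.8% of all genes. The fold changes below are on the log2(CPM + 0.5) scale, which understates changes of low genes, and are given as senescent over control. In bulk RNA a change in the number of cells that express a gene and a change in RNA per cell cannot be told apart.

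**Figure D2:**
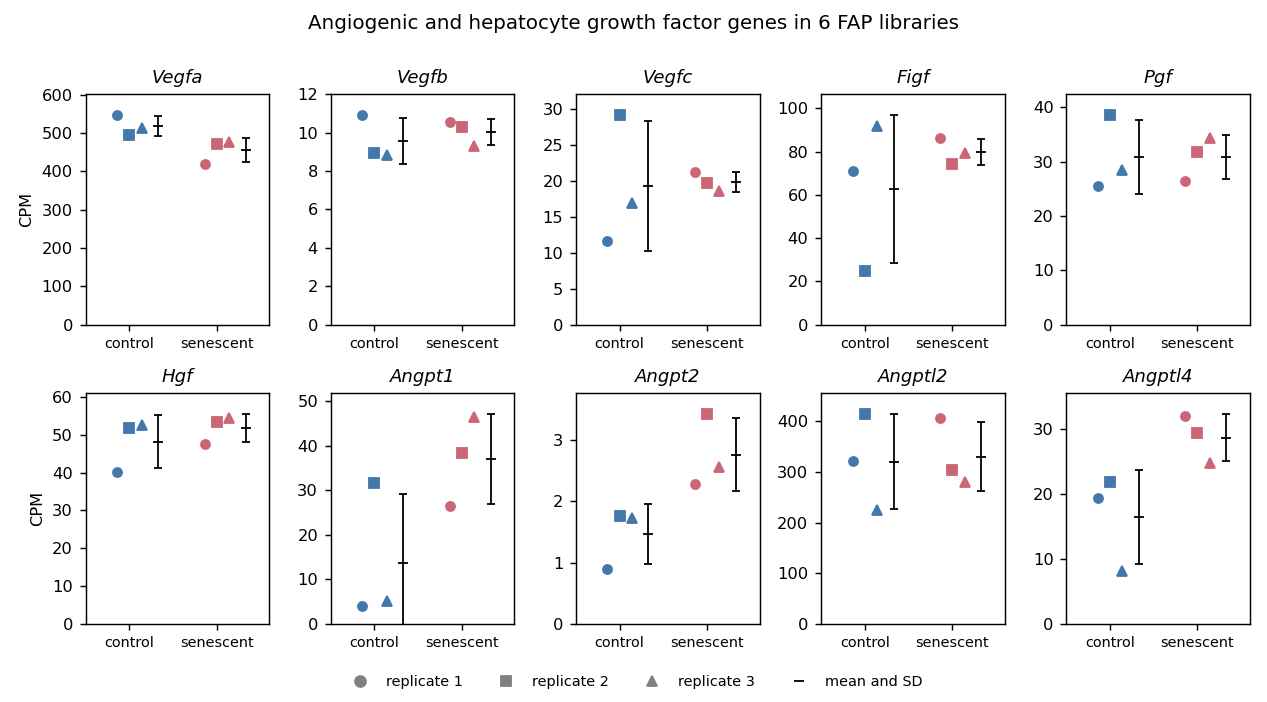
Level of each factor in CPM, a panel per gene with its own linear axis from 0, with a symbol for each library (shape gives the replicate number) and, beside them, the mean and SD of 3 libraries; the lower SD bar of Angpt1 in control FAPs is cut at 0. Control replicate 2 stands apart in Angpt1 (31.6 CPM) and Figf (24.9 CPM), and the groups are apart in Vegfa, Angpt2 and Angptl4.

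Angpt1, the TIE2 agonist, rose in senescent FAPs, with a wide spread among the controls. Its level was 3.93, 31.6 and 5.08 CPM in control replicates 1, 2 and 3 and 26.4, 38.4 and 46.4 CPM in senescent replicates 1, 2 and 3. Control replicates 1 and 3 were far below every senescent library, while control replicate 2 lay within the senescent range, so the groups overlapped. The mean was 13.5 ± 15.7 CPM (SD, n = 3) in control and 37.1 ± 10.1 CPM (n = 3) in senescent FAPs. The log2 fold change was 1.98 (SE 0.68, 95% interval 0.41 to 3.56, adjusted p = 0.0452 in limma), and the level was higher in 3 of 3 pairs of equal replicate number. Between the libraries numbered 2 the log2 difference was 0.28, against 2.60 and 3.07 in the other pairs. Control replicate 2 made the fold change smaller: without it the log2 fold change was 2.88 (adjusted p = 1.07e-04 in limma). The call was lost without control replicate 1 (1.45, adjusted p = 0.118), control replicate 3 (adjusted p = 0.132) or any senescent library (0.0656 to 0.139), and in edgeR (0.139) and DESeq2 (0.186). Angpt1 lies at chr15:42424723-42676977 on the minus strand (GRCm38) and shares 737 bases of exon with the antisense gene Gm17473. Gm17473 is not among the listed genes, and the strand setting of the counting is not given in the sources used here.

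Angpt2, whose product competes with ANGPT1 for TIE2, also rose, from a low level. It was measured at 0.893, 1.77 and 1.72 CPM in control and 2.28, 3.43 and 2.57 CPM in senescent FAPs, from 40 to 205 reads per library. Every senescent library was above every control library. The mean was 1.46 ± 0.493 CPM (SD, n = 3) in control and 2.76 ± 0.597 CPM (n = 3) in senescent FAPs, 1.89-fold higher. The log2 fold change was 0.75 (SE 0.24, 95% interval 0.20 to 1.30, adjusted p = 0.0343 in limma). The call was lost without control replicate 1 (adjusted p = 0.0815 in limma), senescent replicate 2 (0.122) or senescent replicate 3 (0.0795), and held in edgeR (0.0413) and DESeq2 (0.0153). Angpt2 (chr8:18690263-18741562, minus strand) lies inside Mcph1, which is read from the opposite strand and shares 0 bases of exon with it.

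Because ANGPT2 often blocks the signal of ANGPT1, the ratio of Angpt2 to Angpt1 was compared within each library. Angpt4, a further TIE2 ligand, is not part of this ratio. Angpt1 exceeded Angpt2 in CPM in all 6 libraries, by 4.40, 17.9 and 2.95 times in control and 11.6, 11.2 and 18.1 times in senescent FAPs. The senescent libraries lay within the control range except senescent replicate 3, which was just above it. The log2 ratio of Angpt2 to Angpt1 was −2.62 ± 1.37 (SD, n = 3) in control and −3.73 ± 0.387 (n = 3) in senescent FAPs. The difference of −1.11 was not larger than the spread between replicates (exact two-sided permutation test, p = 0.3, where 3 against 3 libraries cannot go below 0.1). It was −1.88 without control replicate 2 and −0.58 without control replicate 3.

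Angptl4, an inhibitor of lipoprotein lipase that also acts on vessel permeability, was higher in every senescent library than in any control. Its level was 19.3, 21.8 and 8.17 CPM in control and 31.9, 29.3 and 24.7 CPM in senescent FAPs. Control replicate 3 was the lowest library, and the gap between the groups was the step from 21.8 to 24.7 CPM. The mean was 16.4 ± 7.25 CPM (SD, n = 3) in control and 28.6 ± 3.64 CPM (n = 3) in senescent FAPs, and the log2 fold change of 0.89 (SE 0.33, 95% interval 0.12 to 1.65) missed the threshold (adjusted p = 0.0584 in limma). With the replicate number as a block, which pairs control and senescent libraries of equal number, Angptl4 passed (adjusted p = 0.0101 in limma). So did Angpt1 (0.0124) and Angpt2 (0.0108). In that fit 3 of 10 genes were called, against 7523 of 14776 over all genes tested. Angptl4 also passed in DESeq2 (adjusted p = 0.0180), with library totals alone (0.0272 in limma) and without control replicate 2 (0.0162) or 3 (0.0417). Without control replicate 3 its log2 fold change was 0.46.

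Angptl2, a secreted ligand linked to inflammation in adipose tissue, did not pass the test. Its level was 321, 415 and 226 CPM in control and 408, 303 and 280.0 CPM in senescent FAPs. The groups overlapped, with control replicates 2 and 3 at the top and bottom of all 6 libraries. The log2 fold change was 0.07 (SE 0.23, 95% interval −0.46 to 0.60, adjusted p = 0.826 in limma). Angptl2 (chr2:33216069-33247717, plus strand) lies inside Ralgps1 on the opposite strand, with 0 shared bases of exon.

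**Figure D3:**
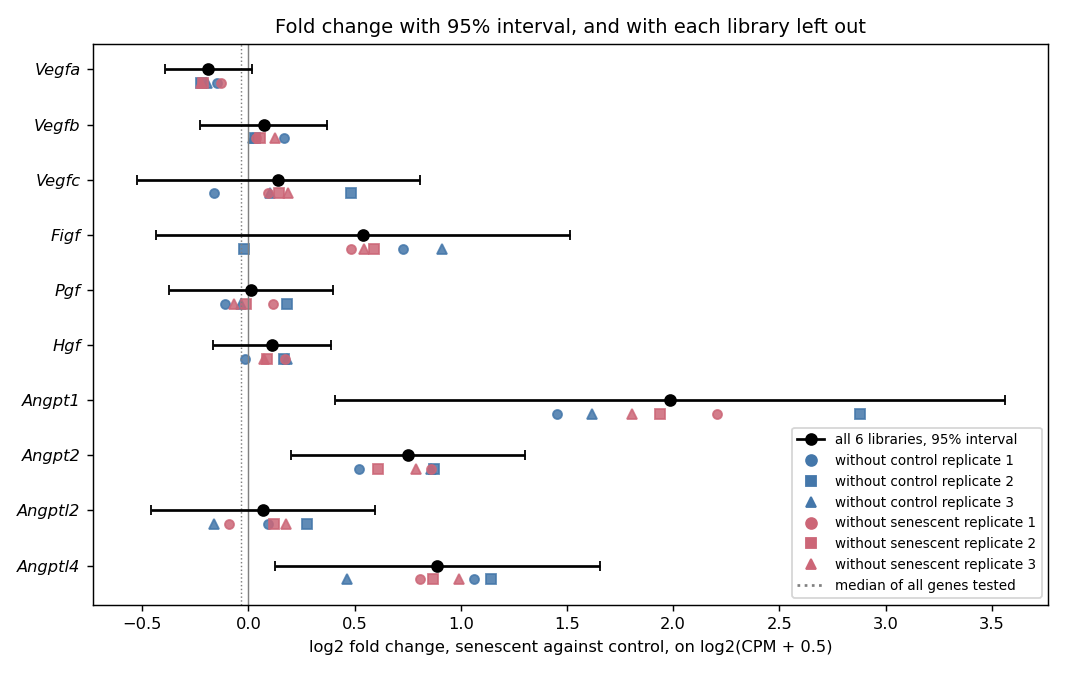
log2 fold change (senescent over control) of each factor on the log2(CPM + 0.5) scale, as a black point with its 95% interval from limma over 6 libraries, and below it the value with each library left out (colored symbols); the solid line is 0 and the dotted line the median of all genes tested. The interval lies above 0 for Angpt1, Angpt2 and Angptl4, of which Angptl4 missed the adjusted threshold at 0.0584, and the Angpt1 value without control replicate 2 is 2.88.

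Vegfa, the main inducer of blood vessel sprouting, was slightly lower in senescent FAPs without passing the test. Its level was 548, 495 and 514 CPM in control and 419, 471 and 478 CPM in senescent FAPs. The groups did not overlap, and it was lower in the senescent library of all 3 pairs. The mean was 519 ± 27.0 CPM (SD, n = 3) in control and 456 ± 32.2 CPM (n = 3) in senescent FAPs, with a log2 fold change of −0.19 (SE 0.088, 95% interval −0.39 to 0.02, adjusted p = 0.117 in limma). At 21093 to 28637 reads per library, counting error was small beside the spread. The sign depended on the scaling. With library totals alone, which moved the median of all genes from −0.03 to 0.17, the log2 fold change was 0.02, and relative to those medians it was −0.15 and −0.14. Vegfa lies at chr17:46016993-46032369 on the minus strand.

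The lymphatic ligands Vegfc and Figf were distinguished by their control libraries. Vegfc was measured at 11.6, 29.2 and 17.0 CPM in control and 21.3, 19.7 and 18.6 CPM in senescent FAPs. All 3 senescent libraries lay inside the control range, between control replicate 3 and control replicate 2. The log2 fold change was 0.14 (SE 0.29, 95% interval −0.53 to 0.81, adjusted p = 0.712 in limma). It turned to −0.16 without control replicate 1 and passed the test at 0.48 (adjusted p = 0.0389) without control replicate 2.

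Figf, which lies on the X chromosome (chrX:164373378-164402650, plus strand), was measured at 71.2, 24.9 and 91.9 CPM in control and 86.2, 74.2 and 79.2 CPM in senescent FAPs. Control replicate 2 was lower than any other library, and control replicate 3 was the highest of the 6, so the groups overlapped. The log2 fold change was 0.54 (SE 0.42, 95% interval −0.44 to 1.51, adjusted p = 0.323 in limma). Without control replicate 2 it was −0.02. Control replicate 2 was thus the library with the highest Vegfc and the lowest Figf of the 6.

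Pgf, a ligand of VEGFR1, was measured at 25.5, 38.6 and 28.4 CPM in control and 26.4, 31.7 and 34.3 CPM in senescent FAPs. The groups overlapped, with a log2 fold change of 0.01 (SE 0.17, 95% interval −0.38 to 0.40, adjusted p = 0.959 in limma). Vegfb, the other VEGFR1 ligand, was measured at 10.9, 8.96 and 8.81 CPM in control and 10.6, 10.3 and 9.29 CPM in senescent FAPs. The senescent libraries lay inside the control range, with a log2 fold change of 0.07 (SE 0.13, 95% interval −0.23 to 0.37, adjusted p = 0.671). For both genes the interval leaves out changes as large as that fitted for Angpt2, at 0.75.

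As a share of the VEGF family in CPM, Vegfa made up 82.1%, 83.0% and 77.9% in control and 74.4%, 77.6% and 77.2% in senescent FAPs. The control libraries were all above the senescent ones, by as little as the step from 77.9% to 77.6%. The mean share was 81.0% ± 2.73 (SD, n = 3) against 76.4% ± 1.76 (n = 3), a difference of −4.61 percentage points (exact two-sided permutation test, p = 0.1, the smallest that 3 against 3 libraries allow). The family summed to 596 to 667 CPM in control and 563 to 619 CPM in senescent FAPs, and these ranges overlapped. With Benjamini-Hochberg adjustment over the 2 ratios compared, the exact p-values were 0.2 for this share and 0.3 for the angiopoietin ratio.

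Hgf was measured at 40.04, 51.8 and 52.7 CPM in control and 47.5, 53.3 and 54.5 CPM in senescent FAPs. Control replicate 1 was lowest, and the senescent libraries otherwise lay around the remaining controls, so the groups overlapped although the senescent library was higher in 3 of 3 pairs. The mean was 48.2 ± 7.07 CPM (SD, n = 3) in control and 51.8 ± 3.75 CPM (n = 3) in senescent FAPs, with a log2 fold change of 0.11 (SE 0.12, 95% interval −0.17 to 0.39, adjusted p = 0.479 in limma). Hgf (chr5:16553495-16620152, plus strand) shares 484 bases of exon with Gm43489 on the same strand. Gm43489 is not among the listed genes, and how reads on shared exon were counted is not given in the sources used here.

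Receptors were measured from a list of 8, of which 7 had a value and Tie1 was not analysed here. Of these 7, 1 rose (Flt4), 1 fell (Kdr) and 5 did not pass, a called share of 28.6% beside 46.1% over all genes, with a median log2 fold change of −0.08 beside −0.03 over all genes. Flt4 (VEGFR3) was at 6.40, 4.83 and 2.71 CPM in control and 9.65, 8.16 and 7.81 CPM in senescent FAPs. The groups did not overlap, and the log2 fold change was 0.88 (SE 0.27, adjusted p = 0.0308 in limma), a call lost without control replicate 3 (0.0510) or any senescent library (0.0713 to 0.0867). Kdr (VEGFR2) was at 3.28, 4.28 and 4.60 CPM in control and 2.08, 2.53 and 2.00 CPM in senescent FAPs. Its groups did not overlap either, and it fell by 0.74 on the log2 scale (SE 0.17, adjusted p = 0.00989 in limma). Flt1 (VEGFR1) was at 11.1, 17.0 and 17.6 CPM in control and 12.2, 8.97 and 9.02 CPM in senescent FAPs. Senescent replicate 1 lay above control replicate 1, so the groups overlapped, and the log2 fold change of −0.56 missed the threshold (adjusted p = 0.0533 in limma). It passed in DESeq2 (adjusted p = 0.0286) and, in limma, without control replicate 1 (−0.77, adjusted p = 0.0111) or senescent replicate 1 (−0.70, adjusted p = 0.0383). Kdr and Flt4 are receptors that endothelial cells carry. Of the 5 tested markers of those cells, 2 rose (Pecam1, log2 fold change 0.89, and Vwf, 0.64) and 3 did not pass (Eltd1, 0.44, Esam, −0.10, and Egfl7, −0.14), and their part in the receptor values was not tested.

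The co-receptor Nrp1 was at 215 to 290.1 CPM in control and 223 to 245 CPM in senescent FAPs (log2 fold change −0.13, adjusted p = 0.369 in limma). Nrp2, the co-receptor for VEGFC, was at 47.1, 131 and 43.8 CPM in control and 59.6, 61.9 and 61.7 CPM in senescent FAPs. Control replicate 2 was again apart from the other controls, and the log2 fold change was −0.08 with it and 0.42 without it (adjusted p = 0.870 and 0.00324 in limma). Tek (TIE2), the receptor of the angiopoietins, was at 11.998 to 32.9 CPM in control and 18.3 to 25.1 CPM in senescent FAPs (0.18, adjusted p = 0.688), with −0.12 without control replicate 2 and a pass at 0.59 without control replicate 3 (adjusted p = 0.0446). Met, the receptor of HGF, was at 4.196, 7.13 and 6.10 CPM in control and 7.47, 6.99 and 8.82 CPM in senescent FAPs, with overlapping groups (0.41, adjusted p = 0.128). It was 0.21 without control replicate 1, and passed without control replicate 2 (0.56, adjusted p = 0.0376 in limma) and with library totals alone (0.61, adjusted p = 0.03997).

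Proteases that activate the HGF precursor, and their inhibitors, were taken from a list of 12, of which 8 had a value and 5 passed the filter. Of these 5, 2 rose (beside 21.8% of all genes), 1 fell (beside 24.3%) and 2 did not pass. The called share was 60% beside 46.1% over all genes. St14 (matriptase), a membrane protease that cleaves the HGF precursor, was at 0.335, 0.114 and 0.251 CPM in control and 4.49, 6.06 and 5.81 CPM in senescent FAPs. Its 6 to 15 reads per control library against 226 to 362 per senescent library gave groups that were far apart, with a log2 fold change of 3.02 (SE 0.19, adjusted p = 1.10e-04 in limma). Every control value was under the 0.5 CPM of the filter, so St14 entered the test only through the senescent libraries. Hpn (hepsin), a protease with the same activity, was at 0.692, 0.209 and 0.790 CPM in control and 2.56, 2.21 and 1.598 CPM in senescent FAPs (1.33, adjusted p = 0.00559). The activator Hgfac and the inhibitors Spint1 and Spint2 had values but did not reach the filter, so they were not tested. Hgfac was at 0.0446 to 0.114 CPM in control and 0.457 to 0.698 CPM in senescent FAPs. Spint1 was at 0.0670 to 0.247 and 0.338 to 0.536 CPM, and Spint2 at 0.0893 to 0.180 and 0.278 to 0.720 CPM. Each was higher in 3 of 3 pairs of equal replicate number, at 2 to 32 reads per library.

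**Figure D4:**
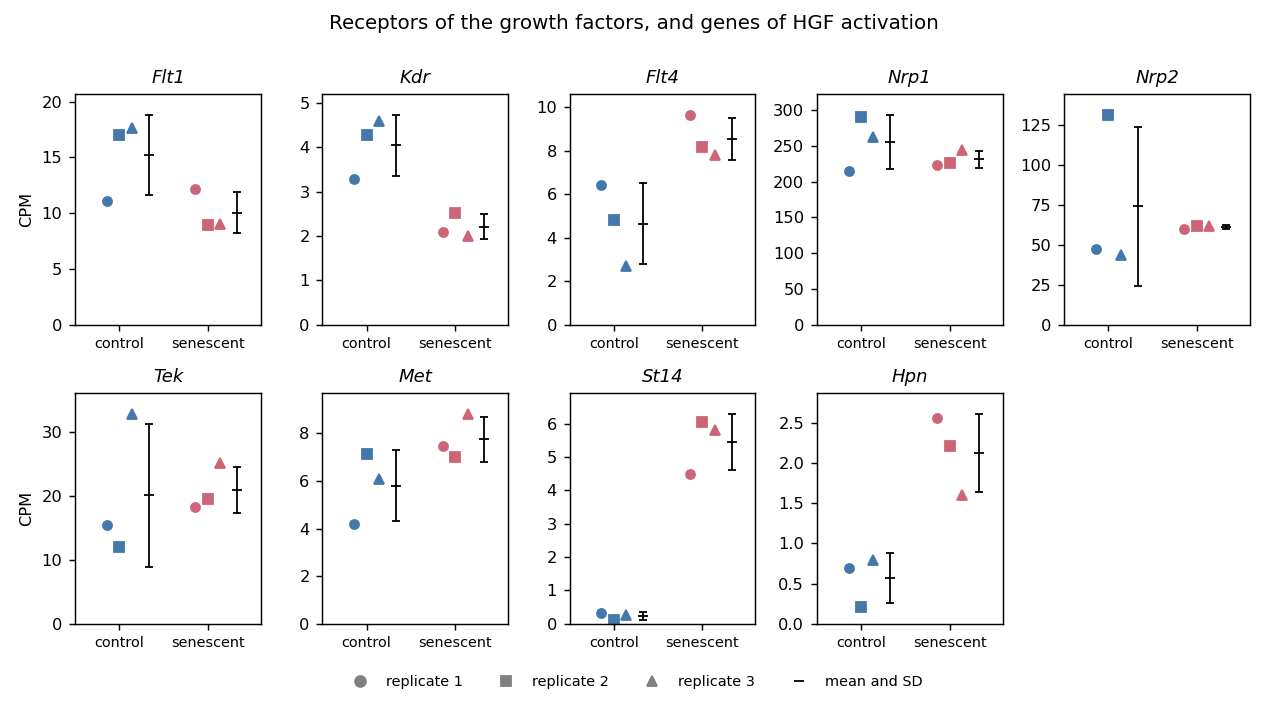
Level in CPM of the 7 receptors and co-receptors with a value and of St14 and Hpn, on linear axes from 0, with a symbol for each of 3 control and 3 senescent libraries and, beside them, the mean and SD. The groups are apart for Kdr, lower in senescent FAPs, and for Flt4, St14 and Hpn, higher in senescent FAPs, and control replicate 2 stands out in Nrp2 at 131 CPM.

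Proteases that cut VEGFC and VEGFD or their partners were taken from a list of 10, with 9 measured. Of the 9, 2 rose, 3 fell and 4 did not pass, a called share of 55.6% beside 46.1% over all genes, and the median log2 fold change was −0.48 beside −0.03. The proprotein convertase Pcsk5 rose from 20.4, 24.7 and 27.0 CPM in control to 50.6, 58.7 and 59.3 CPM in senescent FAPs (1.21, SE 0.12, adjusted p = 3.91e-04 in limma). Ctsd (cathepsin D), a lysosomal protease, rose from 1166 to 1314 CPM in control to 2022 to 2469 CPM in senescent FAPs (0.89, adjusted p = 0.00139). The convertase Pcsk6 fell from 85.6, 61.6 and 100.4 CPM to 41.8, 50.2 and 44.8 CPM (−0.82, adjusted p = 0.00662). Members of the same protease family thus moved in both directions.

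Regulators and targets of the pathways known to induce Vegfa and Angptl4 were counted next. Of 31 tested hypoxia genes, 1 rose, 11 fell and 19 did not pass, a called share of 38.7% beside 46.1% over all genes, with a median log2 fold change of −0.33. The glycolytic enzymes Pgk1 (−0.87, adjusted p = 0.00107 in limma) and Ldha (−0.72, 0.00149) and the collagen prolyl hydroxylase subunit P4ha1 (−0.65, 0.00132) were lower in senescent FAPs. Of 15 tested PPAR genes, 6 rose, 2 fell and 7 did not pass, a called share of 53.3%, with a median log2 fold change of 0.22. Cpt1a, which carries fatty acids into mitochondrial oxidation, rose from 31.4, 39.8 and 33.5 CPM to 84.0, 84.4 and 91.4 CPM (1.30, SE 0.10, adjusted p = 1.93e-04). The lipid droplet protein Plin2 (0.88, adjusted p = 0.00707) and the fatty acid binding protein Fabp4 (0.71, adjusted p = 0.00777) also rose. The PPAR genes themselves differed. Pparg, with means of 6.62 CPM in control and 4.88 CPM in senescent FAPs, was lower (−0.40, adjusted p = 0.0372). Ppard had higher means, 25.6 and 26.8 CPM, and did not pass (0.06, adjusted p = 0.637). Ppara did not reach the filter and was not tested. Rxra, on the same list, rose (0.33, adjusted p = 0.0122).

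Secreted inhibitors of angiogenesis were taken from a list of 16, with 14 tested, of which 4 rose, 3 fell and 7 did not pass. The called share of 50% was close to the 46.1% over all genes, and the median log2 fold change was −0.25 beside −0.03. Vash2, a member of the vasohibin family that is reported to promote angiogenesis rather than block it, fell from 23.7, 18.0 and 19.1 CPM to 9.61, 9.99 and 10.6 CPM (−0.97, adjusted p = 0.00104 in limma). The chemokines Cxcl10 (2.19, adjusted p = 0.00156) and Cxcl9 (1.30, adjusted p = 0.00667), which limit endothelial growth through CXCR3, rose from 2 to 8 reads per control library to 34 to 210 reads per senescent library. Every control value of these chemokines was under the 0.5 CPM of the filter. Both entered the test only through the senescent libraries, and both are among the 4 that rose.

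Among 4 tested relatives in the angiopoietin and angiopoietin-like families, 1 rose and 3 did not pass, a called share of 25% beside 46.1% over all genes. Angpt4, a further TIE2 ligand, was at 119, 103 and 92.8 CPM in control and 150.4, 126 and 136 CPM in senescent FAPs. The groups did not overlap, with a log2 fold change of 0.39 (SE 0.11, adjusted p = 0.0237 in limma), lost without control replicate 3 (0.0788) or senescent replicate 1 (0.0694) or 3 (0.0671). Per kilobase of exon Angpt4 was at 45.0 CPM in control (39.7 to 51.1) and 58.8 CPM in senescent FAPs (53.9 to 64.4), above the range of Angpt1 in both groups. Angptl6 was lower without passing (−0.77, adjusted p = 0.0923 in limma). It was −0.51 without control replicate 3, and passed without control replicate 2 (−1.17, adjusted p = 0.00185) and in DESeq2 (−1.13, adjusted p = 0.0342). Angptl7, found in cornea and connective tissue, was at 1.12, 0.742 and 21.0 CPM in control and 5.92, 9.45 and 51.6 CPM in senescent FAPs. It was highest in the libraries numbered 3 of both groups, and its log2 fold change of 2.09 missed the threshold (adjusted p = 0.177 in limma) and passed with the replicate number as a block (0.00159). It was 1.34 without control replicate 2, 1.19 without senescent replicate 3 and 3.40 without control replicate 3, where it passed (adjusted p = 0.0194).

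The genes whose profile over the 6 libraries was nearest to that of Angpt1 were Bmp2, Jam2 and Spp1. Likeness was the root-mean-square difference of mean-centred log2(CPM + 0.5) values, which was 0.218 for Bmp2, 0.237 for Jam2 and 0.288 for Spp1, against a median of 1.39 over 14775 genes. Bmp2, a bone morphogenetic protein, was at 0.268, 4.91 and 0.951 CPM in control and 4.13, 6.32 and 8.37 CPM in senescent FAPs. Jam2, a junctional adhesion molecule, was at 12.2, 57.5 and 15.7 CPM and 72.4, 109 and 117 CPM. Spp1, which encodes osteopontin, was at 331, 2041 and 384 CPM and 2991, 3891 and 4096 CPM. Like Angpt1, all of them were highest among controls in replicate 2 and were higher still in senescent replicates 2 and 3. They were picked for likeness to Angpt1 over these same libraries, so the shared pattern follows from the choice.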

How the data were processed

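RNA was measured in 3 control and 3 senescent FAP cultures, and groups and replicate numbers were taken from the labels. The authors made stranded mRNA libraries, sequenced them on an Illumina HiSeq instrument, counted reads per gene and deposited a signal in CPM that was scaled to effective library sizes in edgeR (3.10, R 3.6.0, per the submitters' processing notes, which also name the mouse build mm10). The aligner, counting tool, annotation and strand setting are not given in the sources used here, so genes on opposite strands may share reads. Whole reads were recovered for 100% of values (tolerance 0.01). A line that names no gene held 0.0041% to 0.0070% of reads and was left out.

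Genes that reached 0.5 CPM in 3 or more libraries were fitted on log2(CPM + 0.5) with limma (3.58.1, R 4.3.3; trend, two-sided) with Benjamini-Hochberg adjustment. The deposited unit was taken as signal and not plain CPM, and the planned test was kept. Coordinates, exon lengths and overlaps came from GENCODE M21 (GRCm38, the assembly that mm10 also names). Alternatives were pseudocounts of 0.1 and 1, no filter or one at 2 CPM, median-of-ratios factors, library totals alone, each library left out in turn, the fold threshold above, the replicate number as a block, and edgeR quasi-likelihood (4.0.16) and DESeq2 (1.42.0) on recovered reads. Deviations from the group means correlated between libraries of equal number (0.54, 0.31 and 0.21 for numbers 1, 2 and 3). Control replicate 2 and senescent replicate 3 also correlated, at 0.15. For the block fit and the differences by pair, equal numbers were taken as pairs, and their source is this correlation, not the labels. The main limma fit and the permutation tests left the pairing out. Scripts were tested on simulated data.

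The genes and lists were chosen with earlier results of these data known. Text values cover every growth factor and receptor, 3 genes per other pathway list (those of smallest p), the highest marker of each cell type with any at 0, and the 3 genes nearest to Angpt1. Hgfac, Spint1, Spint2, Pparg, Ppard, Ppara, Rxra, the endothelial markers beside the receptors and the genes in the closing section were named after their values were seen. In the list of HGF activation, 1 gene under this rule is not reported here.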

Additional observations from a re-analysis of the deposited data

How the results depend on the processing

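The number of growth factors called, 2, was 0 at an unadjusted p under 0.01 with a log2 fold change beyond 1, 1 in edgeR, and 0 to 4 when 1 library was left out (0 without control replicate 1, senescent replicate 2 or senescent replicate 3, and 4 without control replicate 2). The same fold threshold gave 1600 genes over the table instead of 6810 and 7 pathway genes instead of 38, and leaving out 1 library gave 4546 to 7280 genes over the table and 24 to 59 pathway genes. The fewest came without senescent replicate 2 and senescent replicate 3 respectively, and the most without control replicate 2 for both. In edgeR 6568 of 14776 genes were called over the table. Of the fits that left out 1 library and called 0 factors, the one without control replicate 1 called 5560 genes. The one without senescent replicate 2 called 4546, and the one without senescent replicate 3 called 2266 as higher and 2640 as lower. With library totals alone, Vegfa (0.0245), Nrp1 (0.0783) and Nrp2 (0.13) changed sign, and the share of higher genes among calls went from 47.3% to 72.3%. The median log2 fold change of all genes moved from −0.03 to 0.17 in that fit. With 1 library left out the log2 fold change ran from −0.16 to 0.48 for Vegfc, −0.0214 to 0.91 for Figf, −0.11 to 0.18 for Pgf, −0.0158 to 0.18 for Hgf, −0.16 to 0.28 for Angptl2, −0.36 to 0.42 for Nrp2 and −0.12 to 0.59 for Tek. The cause of these changes with a library left out was not tested. With the replicate block, 3 factors were called, against 7523 of 14776 genes over the table. Angpt1, Angpt2 and Flt4 also remained called. Depth limits Angpt2 (40 to 205 reads) more than the other factors, each with at least 176 reads per library.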

Other observations

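Control replicate 2 was also the lowest library for several hypoxia genes. Car9 was at 11.2, 2.83 and 4.67 CPM in control replicates 1, 2 and 3, Ndrg1 at 51.4, 12.8 and 40.2 CPM, and Ankrd37 at 7.86, 1.41 and 4.77 CPM. In senescent FAPs the same genes were at 2.84 to 3.31, 25.1 to 35.7 and 1.89 to 2.51 CPM. None of the 3 passed in limma (adjusted p = 0.191, 0.945 and 0.277). Epas1, which encodes HIF-2α, was the hypoxia gene that rose, from 3.102, 4.35 and 3.18 CPM to 6.27, 6.52 and 6.41 CPM (log2 fold change 0.79, adjusted p = 0.00568 in limma).

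Thy1, a stromal surface marker, was high in replicate 1 of both groups, at 489 CPM in control and 615 CPM in senescent FAPs, against 41.3 to 73.6 CPM in the other 4 libraries. Tnmd, a tendon gene and angiogenesis inhibitor, fell from 29.7, 10.04 and 47.0 CPM to 7.90, 5.42 and 6.75 CPM (−1.80, adjusted p = 0.0195 in limma).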
